A study of Mus musculus with 9 samples.

Results

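The 27 genes described here encode enzymes of the cholesterol synthesis pathway, the sterol-sensing machinery built around the transcription factor SREBP2, and one cytosolic sterol carrier. They were followed in dendritic cells (BMDC) that had been derived from mouse bone marrow, cells whose task is to present antigen to T cells. The cells were left untreated or received lysophosphatidic acid (LPA), a lipid that signals through receptors on the cell surface, for 2 h or 6 h. Each of the 3 groups had 3 libraries, and the study's title places LPA as a tumour product in ovarian cancer. The labels give no LPA dose, vehicle, mouse strain, age or culture protocol. They also give no time for the untreated cells, and no untreated group is matched to 2 h or to 6 h. Time under LPA and time in culture therefore cannot be told apart. A gene's row in the count table was found through its transcript identifiers, and where a symbol had several rows the one with most counts was taken. All 27 genes were found among 38887 rows, and all 27 passed the filter on low counts that left 14363 genes for testing. Nothing in the labels says that the libraries of a group came from separate animals or cultures, so the p-values measure the spread between these libraries, which may be technical. In bulk RNA of this kind, fewer cells of a type and less RNA per cell cannot be told apart.

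Cholesterol is built from acetyl-CoA through mevalonate, isoprenoid diphosphates and squalene, and the sterol ring is then trimmed and reduced in many small steps. SREBP2 is made as a membrane protein of the endoplasmic reticulum, where its escort Scap is held back by the Insig proteins when sterols are plentiful. When sterols run low, Scap carries SREBP2 to the Golgi, the proteases Mbtps1 and Mbtps2 release its transcription factor domain, and this domain binds sterol regulatory elements, often beside NF-Y boxes, at genes of the pathway. In dendritic cells and macrophages, inflammatory and interferon signals are known to alter this pathway.

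The libraries held between 29628817 and 84596899 estimated counts, and levels are given as CPM, each library's counts put on a common total, after scaling by the trimmed mean of M values, a correction for differences in library composition. On the first principal component of all tested genes, which carried 46.2% of the variance, the 3 LPA 6 h libraries lay between 35.7 and 40.6 and the 3 untreated libraries between -36.9 and -34.5. The 3 LPA 2 h libraries were spread from -12.4 (replicate 3) through -4.67 (replicate 1) to 9.74 (replicate 2). Replicate 3 of the 2 h group was the highest of its group in 20 of the 27 pathway genes (74.1%) and replicate 2 the lowest in 15 (55.6%). Among the 21 of them called lower at 6 h, these shares were 85.7% and 57.1%. Among all 3686 genes called lower at 6 h, they were 58.1% and 62.2%, so this order of libraries was not particular to the pathway. The part of this spread in the results was not tested. Dendritic cell markers summed to 7278 to 8402 CPM in untreated cells, 7736 to 8552 CPM at 2 h and 6750.1 to 7372 CPM at 6 h, over 9 of 9 markers. Cd74 was the largest part of this sum. At 6 h Itgax (-0.34), H2-Ab1 (-0.23), Csf2ra (-0.22) and Batf3 (-0.78) fell on the log2 scale and Ccr7 (0.42) rose. H2-Aa, Cd74, Flt3 and Zbtb46 were not called. Macrophage and monocyte markers, 7 of 7 detected, summed to 3614 to 3647 CPM in untreated cells, 3915 to 3988 CPM at 2 h and 3906 to 4109 CPM at 6 h, and Csf1r carried most of this sum. At 6 h Adgre1 (-0.42), C1qa (-0.46) and C1qb (-0.25) fell and Mertk (0.73), Csf1r (0.22) and Cd68 (0.20) rose, so the 7 did not move together. The part of either marker shift in the results was not tested. The summed markers of T cells, B cells and stromal cells each stayed below 0.5 CPM in every library, those of neutrophils at 3.15 to 5.12 CPM, and Cd3g was at 0 in all 9.

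The promoters of the pathway genes were read from RefSeq windows of build GRCm38.p6 that run from 250 bases before to 50 bases after each transcript start. Windows were found for 23 of the 27 genes. Those of 4 genes are printed because they stand for the patterns in the data. Hmgcs1 (chr13:119690101-119690400, plus strand) and Idi1 (chr13:8885356-8885655, plus strand) fell at both times. Insig1 (chr5:28071162-28071461, plus strand) passed the test for a fall at 6 h and not at 2 h, and Scap (chr9:110333038-110333337, plus strand) rose at 6 h. Capitals mark the NF-Y box (CCAAT on either strand) and the sterol regulatory element letters, either the core CACCCCAC or the looser CACNCCAC, which includes the core.
Hmgcs1: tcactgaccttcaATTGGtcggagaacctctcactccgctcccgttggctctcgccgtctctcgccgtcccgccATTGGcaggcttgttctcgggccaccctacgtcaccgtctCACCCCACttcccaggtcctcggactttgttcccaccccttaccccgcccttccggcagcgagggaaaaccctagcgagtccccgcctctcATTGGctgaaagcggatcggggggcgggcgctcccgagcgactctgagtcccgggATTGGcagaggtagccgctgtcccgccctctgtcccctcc
Idi1: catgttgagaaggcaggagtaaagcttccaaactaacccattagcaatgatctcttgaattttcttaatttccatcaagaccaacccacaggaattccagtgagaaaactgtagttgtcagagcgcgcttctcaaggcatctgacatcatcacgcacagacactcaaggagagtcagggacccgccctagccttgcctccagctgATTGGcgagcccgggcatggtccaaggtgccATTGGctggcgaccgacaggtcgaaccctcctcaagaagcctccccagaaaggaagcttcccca
Insig1: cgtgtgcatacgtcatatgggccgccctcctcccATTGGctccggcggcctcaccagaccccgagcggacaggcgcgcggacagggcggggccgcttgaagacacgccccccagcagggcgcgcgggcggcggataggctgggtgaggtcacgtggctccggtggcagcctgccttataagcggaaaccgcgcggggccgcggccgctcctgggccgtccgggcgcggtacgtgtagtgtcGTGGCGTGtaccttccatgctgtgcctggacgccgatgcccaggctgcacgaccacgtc
Scap: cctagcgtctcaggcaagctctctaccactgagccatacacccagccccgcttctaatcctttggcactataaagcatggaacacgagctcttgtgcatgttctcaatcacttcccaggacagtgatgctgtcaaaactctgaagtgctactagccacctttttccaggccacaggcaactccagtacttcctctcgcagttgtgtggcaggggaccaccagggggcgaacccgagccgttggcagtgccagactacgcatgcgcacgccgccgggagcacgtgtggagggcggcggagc

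Hmgcs1 held the core element at -136 to -129 from its start and 4 NF-Y boxes, while Idi1 held 2 NF-Y boxes and neither form of the element. Insig1 held the looser form at -9 to -2 and 1 NF-Y box, and the Scap window held none of these letters. Among the 23 windows the NF-Y box occurred in 18 (78.3%), against 37.4% of all 32851 windows in the table and 37.8% of the 13350 windows of tested genes. It occurred in 15 of the 17 windows of genes that were lower at 6 h, with 0 in those of Acat2 and Dhcr7. Insig2, which rose at 6 h, held 3 NF-Y boxes, and Ggps1 (3) and Ebp (2), which were not called, held them too. The windows of Scap, Mbtps1 and Mbtps2 held 0. The GC box, GGGCGG on either strand, occurred in 19 (82.6%), against 60.2% of the windows of tested genes and 35.7% of all windows. The core element occurred in 2, those of Acat2 and Hmgcs1 (8.7%, against 3.1% of the windows of tested genes and 2.9% of all), and the looser form in 3, with Insig1 added (13%, against 6.2% in both sets). The E-box CACGTG occurred in 4 (17.4%, against 9.8% and 7.2%). These are letter matches, not shown binding sites, no test was made of the shares, and an absent match says only that the letters are not in that window.

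**Figure D1:**
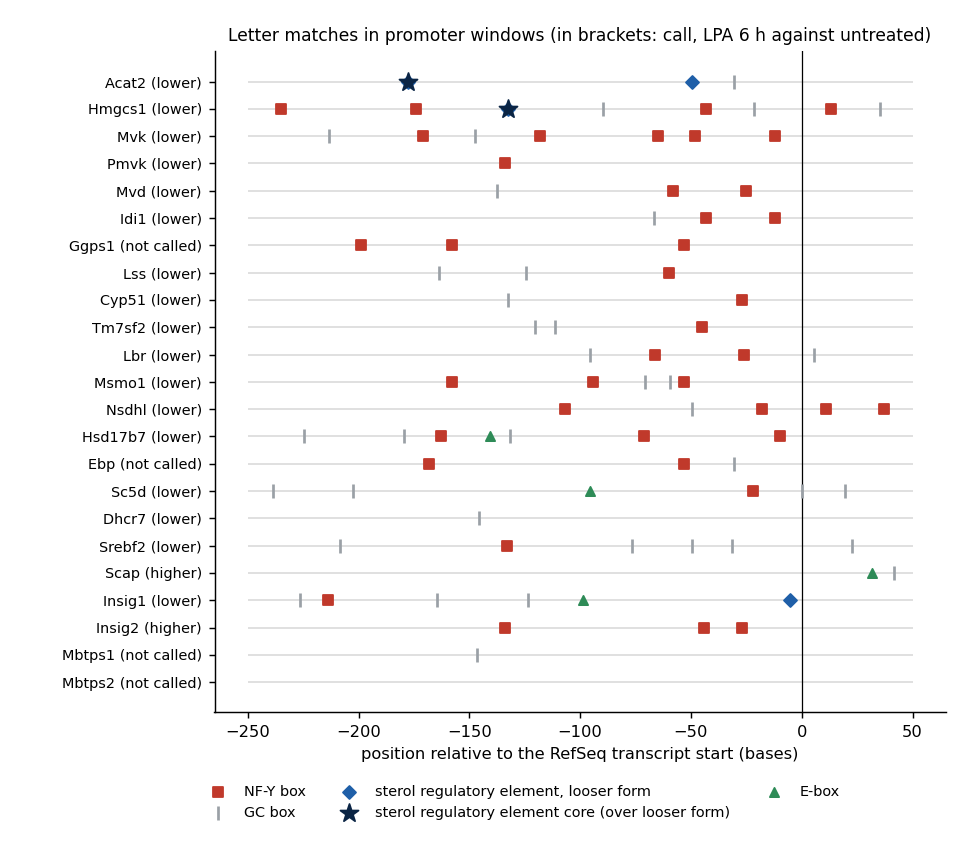
Letter matches of 5 motifs in the 23 promoter windows, placed by distance in bases from the RefSeq transcript start, with each gene's call for LPA 6 h against untreated in brackets. NF-Y boxes are in 18 windows, and sterol regulatory element letters are in those of Acat2, Hmgcs1 and Insig1.

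Most of the pathway was lower after LPA. Summed over the 27 genes, the level was 2679.8 ± 128 CPM in untreated cells, 2119.7 ± 143 CPM at 2 h and 1883 ± 75.4 CPM at 6 h (SD, n = 3 each), which put 2 h at 79.1% and 6 h at 70.3% of untreated. The highest LPA library, replicate 3 at 2 h, summed to 2285 CPM, and the lowest untreated library to 2552 CPM. The test was the quasi-likelihood test of edgeR, with Benjamini-Hochberg adjusted p over all 14363 genes and a threshold of 0.05. Fold changes are on the log2 scale and carry their standard error after ±. By it 17 of the 27 fell at 2 h and 0 rose, against backgrounds of 19.2% of all tested genes lower and 19.3% higher. At 6 h 21 fell and 2 rose, Scap and Insig2, against backgrounds of 25.7% lower and 26.4% higher. The median log2 fold change of the 27 was -0.26 at 2 h, where that of all genes was -0.001, and -0.41 at 6 h, where that of all genes was 0.007. Both comparisons use the same 3 untreated libraries.

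Large changes were fewer. At 2 h, 4 of the 27 fell and were at least 1.5-fold lower (Acat2, Hmgcs1, Idi1 and Fdft1), where 4.3% of all tested genes met that rule. At 6 h, 11 did so, where 9.48% of all tested genes met it. The count of lower calls at 2 h depended on the library that was left out: it was 11 without replicate 1 of the 2 h group and 19 without replicate 3, and 11 of the 17 calls held in every fit with a library left out. At 6 h, 18 of the 21 lower calls and both higher calls held in every such fit.

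**Figure D2:**
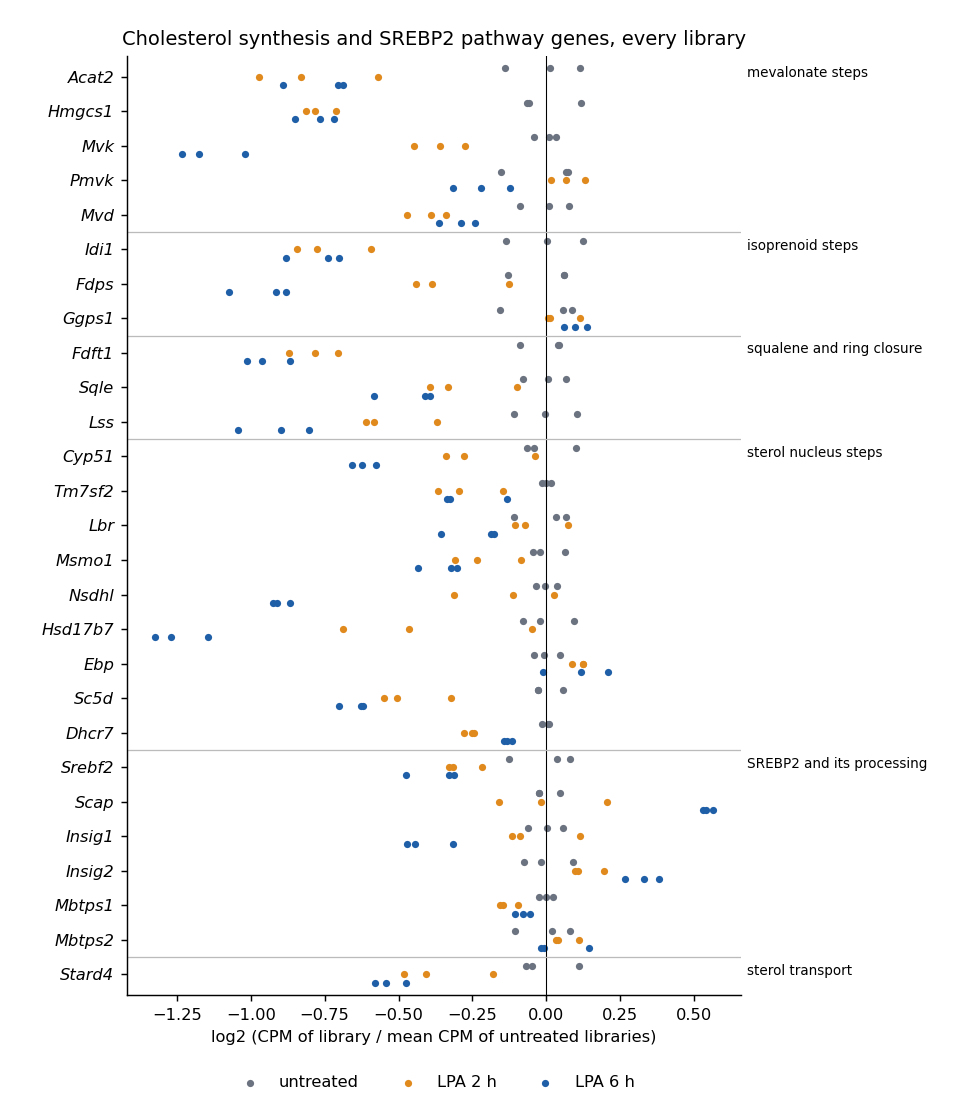
Log2 ratio of each library's CPM to the mean of the 3 untreated libraries for the 27 genes, grouped by step, with untreated, 2 h and 6 h libraries as grey, orange and blue points. For most genes all 6 h points lie left of all untreated points, and for Scap and Insig2 they lie to the right. For Pmvk, Ggps1, Ebp and Mbtps2 they overlap. Such separation was not counted over all tested genes.

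The early mevalonate steps turn acetyl-CoA into isopentenyl diphosphate, and 4 of 5 of their genes fell at 2 h and 5 of 5 at 6 h. Of all tested genes 19.2% fell at 2 h and 25.7% at 6 h, the shares to set beside this and each later step's count. Hmgcs1 (chromosome 13, 119690379 to 119708260, plus strand, GRCm38), the synthase that makes HMG-CoA, had 258, 259 and 292 CPM in untreated cells, 157, 153 and 165 at 2 h and 149.5, 159 and 164 at 6 h. Every LPA library was below every untreated one, and the 2 h and 6 h libraries overlapped. Its log2 fold change was -0.77 ± 0.06 (adjusted p = 9.38e-07) at 2 h and -0.78 ± 0.06 (adjusted p = 6.33e-07) at 6 h. Between 6 h and 2 h no change was called (-0.01 ± 0.06, adjusted p = 0.92). Acat2, the cytosolic thiolase that joins acetyl-CoA units, had 59.3, 65.9 and 70.8 CPM in untreated cells, 33.3, 36.7 and 44 at 2 h and 35.2, 40.6 and 40.1 at 6 h. All its LPA libraries were below all untreated ones, with log2 fold changes of -0.78 ± 0.10 (adjusted p = 0.000191) at 2 h and -0.75 ± 0.10 (adjusted p = 0.000156) at 6 h.

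Mvk, the kinase that phosphorylates mevalonate, moved in 2 steps instead. It had 24.7, 25.7 and 26 CPM in untreated cells, 19.9, 18.7 and 21.1 at 2 h and 10.8, 12.6 and 11.3 at 6 h. The 3 groups did not overlap. The log2 fold change was -0.36 ± 0.07 (adjusted p = 0.000901) at 2 h and -1.14 ± 0.07 (adjusted p = 1.55e-07) at 6 h, and 6 h was lower than 2 h (-0.77 ± 0.07, adjusted p = 1.53e-05). Its promoter window held 5 NF-Y boxes, the most of the 23. Mvd, the decarboxylase that ends this stretch, had 106, 119 and 113 CPM in untreated cells, 81.3, 89.1 and 86 at 2 h and 87.7, 95.4 and 92.2 at 6 h. It fell, with log2 fold changes of -0.40 ± 0.05 (adjusted p = 0.000116) at 2 h and -0.30 ± 0.05 (adjusted p = 0.00066) at 6 h. Pmvk, which phosphorylates phosphomevalonate, had 50.4, 59.1 and 58.8 CPM in untreated cells, 58.8, 56.7 and 61.5 at 2 h and 45.1, 51.6 and 48.2 at 6 h. Its 2 h libraries lay within or just above the untreated range (0.07 ± 0.07, adjusted p = 0.445), and at 6 h it was lower, with a log2 fold change of -0.22 ± 0.07 (adjusted p = 0.0186) with overlapping libraries. That 6 h call of Pmvk was lost without any 1 of 4 libraries, untreated replicates 2 and 3 (-0.18 each) and 6 h replicates 1 (-0.18) and 3 (-0.21).

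Of the 3 isoprenoid genes, Idi1 and Fdps fell at both times and Ggps1 did not pass the test at either. Idi1, the isomerase that makes the second building block of isoprenoids, had 193, 213 and 231 CPM in untreated cells, 118, 124 and 141 at 2 h and 115, 131 and 127 at 6 h. All LPA libraries were below all untreated ones, with a log2 fold change of -0.73 ± 0.08 (adjusted p = 3.29e-05) at 2 h and -0.77 ± 0.08 (adjusted p = 1.37e-05) at 6 h. Fdps, which makes farnesyl diphosphate, had 175, 199 and 199 CPM in untreated cells, 146, 141 and 175 at 2 h and 90.8, 104 and 101 at 6 h. At 2 h its replicate 3 was just above the lowest untreated library, and the change of -0.31 ± 0.09 (adjusted p = 0.0158) was no longer called without untreated replicates 2 or 3 (-0.28 each) or 2 h replicates 1 (-0.28) or 2 (-0.25). At 6 h every library was below every other library of the study (-0.95 ± 0.09, adjusted p = 7.62e-06 against untreated, -0.64 ± 0.09, adjusted p = 0.000226, against 2 h). Fdps shares 1124 exonic bases (26.7%) with Gm43738 on the same strand, which had 0 counts in rows matched to it alone. A gene without such a row also gets 0, so this does not show that Gm43738 was silent. Ggps1, which makes the geranylgeranyl diphosphate used for protein prenylation, had 19.1, 16.1 and 18.7 CPM in untreated cells, 18.2, 18.1 and 19.5 at 2 h and 19.3, 18.8 and 19.8 at 6 h. The groups overlapped, with log2 fold changes of 0.05 ± 0.07 (adjusted p = 0.636) at 2 h and 0.10 ± 0.07 (adjusted p = 0.242) at 6 h. It shares 257 exonic bases (5.4%) with Arid4b on the opposite strand, which rose (0.39 at 2 h and 0.20 at 6 h). The library kit does not keep strand, so reads from the shared bases cannot be told apart.

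The 3 genes that lead through squalene to lanosterol fell at both times. Fdft1 (chromosome 14, 63145150 to 63179578, minus strand), squalene synthase and the entry to the sterol branch, had 79.2, 86.7 and 86.5 CPM in untreated cells, 46, 48.9 and 51.7 at 2 h and 41.7, 46.1 and 43.2 at 6 h. The LPA libraries were well below all untreated ones, with a log2 fold change of -0.78 ± 0.06 (adjusted p = 8.27e-07) at 2 h and -0.95 ± 0.06 (adjusted p = 1.93e-07) at 6 h. Fdft1 shares 774 exonic bases (18.3%) with Ctsb on the opposite strand, a far more abundant transcript whose own change did not pass the test (0.06 ± 0.05, adjusted p = 0.347 at 2 h and 0.08 ± 0.05, adjusted p = 0.164 at 6 h). Lss, the cyclase that forms lanosterol, had 96.3, 103 and 112 CPM in untreated cells, 69.3, 67.9 and 80.4 at 2 h and 50.3, 59.4 and 55.7 at 6 h. Its 3 groups did not overlap. It fell, with log2 fold changes of -0.52 ± 0.08 (adjusted p = 0.000367) at 2 h and -0.91 ± 0.08 (adjusted p = 3.87e-06) at 6 h, and 6 h was lower than 2 h (-0.39 ± 0.08, adjusted p = 0.0021). Sqle, squalene epoxidase, had 155, 165 and 172 CPM in untreated cells, 125, 130.1 and 153 at 2 h and 109, 123 and 125 at 6 h. At 2 h its replicate 3 came within 3 CPM of the lowest untreated library, and the call (-0.27 ± 0.08, adjusted p = 0.0168) was lost without untreated replicates 2 (-0.27) or 3 (-0.24) or 2 h replicates 1 (-0.21) or 2 (-0.24). At 6 h it was lower, with a log2 fold change of -0.46 ± 0.08 (adjusted p = 0.000453) and all libraries were below the untreated ones.

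**Figure D3:**
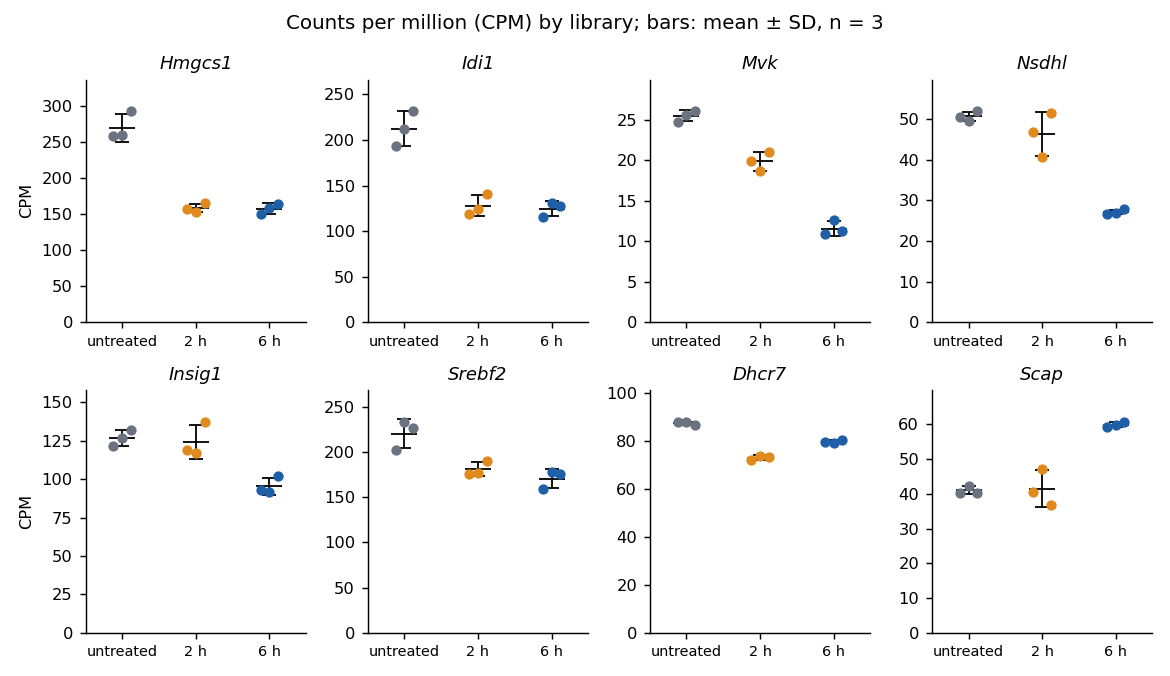
CPM of 8 genes in each library, untreated, 2 h and 6 h from left to right, with the mean and SD of 3 libraries. Hmgcs1 and Idi1 are low at both LPA times, Mvk, Nsdhl and Insig1 are lowest at 6 h, Dhcr7 is lowest at 2 h, and Scap is highest at 6 h.

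Of the 9 genes that trim the sterol nucleus, 5 fell at 2 h and 8 at 6 h, where 19.2% and 25.7% of all tested genes fell. Ebp did not pass the test at either time. The removal of the methyl pair next to the sterol hydroxyl needs Msmo1, Nsdhl and Hsd17b7 in turn. Hsd17b7 (chromosome 1, 169949535 to 169969241, minus strand), the keto-reductase of that set, had 47.1, 49 and 53.1 CPM in untreated cells, 36.1, 30.9 and 48.1 at 2 h and 19.8, 22.5 and 20.6 at 6 h. Its 6 h libraries were all below the others, and at -1.24 ± 0.15 (adjusted p = 0.000125) this was the largest decrease of the 27 at 6 h. The 2 h libraries were widely spread, and their change of -0.38 ± 0.14 (adjusted p = 0.0625) did not pass, although without 2 h replicate 3 it did (-0.57). With all libraries it also passed by the DESeq2 Wald test (-0.38, adjusted p = 0.00909) and limma-voom (-0.42, adjusted p = 0.0207). In edgeR it passed with total-count scaling (-0.40, adjusted p = 0.0411) and with a replicate block (-0.39, adjusted p = 0.044). The other settings did not call it. Nsdhl, the decarboxylating dehydrogenase, had 50.6, 49.6 and 52 CPM in untreated cells, 46.9, 40.8 and 51.7 at 2 h and 26.7, 27 and 27.8 at 6 h. Its 2 h libraries overlapped the untreated range (-0.13 ± 0.07, adjusted p = 0.175), while at 6 h it was lower, with a log2 fold change of -0.90 ± 0.07 (adjusted p = 1.11e-06), a drop that was also present against 2 h (-0.77 ± 0.07, adjusted p = 1.84e-05). Without 2 h replicate 3 the 2 h change of Nsdhl was called as well (-0.21). Msmo1, the oxidase that opens this set, had 140.5, 143 and 151 CPM in untreated cells, 117, 123 and 136 at 2 h and 107, 117 and 116 at 6 h. It fell, with log2 fold changes of -0.21 ± 0.06 (adjusted p = 0.0164) at 2 h and -0.35 ± 0.06 (adjusted p = 0.00039) at 6 h. Its 2 h call was lost without untreated replicate 3 (-0.17) or 2 h replicate 1 (-0.16).

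Cyp51 (chromosome 5, 4081145 to 4104746, minus strand), the cytochrome that demethylates lanosterol, had 225, 221 and 247 CPM in untreated cells, 190.3, 183 and 225 at 2 h and 146, 155 and 149.9 at 6 h. Replicate 3 of the 2 h group lay inside the untreated range, and the 2 h change was -0.21 ± 0.07 (adjusted p = 0.0357), against -0.62 ± 0.07 (adjusted p = 2.66e-05) at 6 h. The 2 h call did not hold without untreated replicates 1 (-0.23) or 3 (-0.16), 2 h replicates 1 (-0.18) or 2 (-0.15), or 6 h replicates 1 or 3 (-0.21 each). Cyp51 shares 166 exonic bases (3.8%) with Akap9 on the opposite strand. The next reduction can be made by either of a pair of sterol reductases, Tm7sf2 and Lbr, the other role of Lbr being to anchor lamins and chromatin at the nuclear envelope. Tm7sf2 had 14, 14.3 and 14.1 CPM in untreated cells, 11.5, 12.8 and 11 at 2 h and 11.3, 12.9 and 11.2 at 6 h. Its change was -0.26 ± 0.08 (adjusted p = 0.0159) at 2 h and -0.26 ± 0.08 (adjusted p = 0.0132) at 6 h. Its calls were lost without 2 h replicate 1 (-0.25) and, at 6 h, without 6 h replicate 3 (-0.22). It shares 532 exonic bases (12.1%) with Vps51 on the same strand, which also fell (-0.19 at 2 h and -0.33 at 6 h). Lbr had 14.1, 15.9 and 15.5 CPM in untreated cells, 14.4, 14.1 and 15.9 at 2 h and 11.8, 13.3 and 13.4 at 6 h. It was not called at 2 h (-0.04 ± 0.07, adjusted p = 0.746) and was lower at 6 h (-0.23 ± 0.08, adjusted p = 0.0212), a call that was lost without untreated replicates 2 (-0.20) or 3 (-0.22) or 6 h replicate 1 (-0.19).

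The last steps move and add double bonds in the ring. Sc5d, the desaturase, had 122, 122 and 129.98 CPM in untreated cells, 88, 85.4 and 99.99 at 2 h and 76.9, 81 and 81.2 at 6 h. It fell, with log2 fold changes of -0.46 ± 0.06 (adjusted p = 6.81e-05) at 2 h and -0.65 ± 0.06 (adjusted p = 2.68e-06) at 6 h with no overlap with untreated cells. Ebp, the isomerase that acts before it, had 42.9, 45.6 and 43.9 CPM in untreated cells, 48.1, 46.9 and 48.1 at 2 h and 43.8, 51 and 47.9 at 6 h. All 3 of its 2 h libraries were above the untreated ones, but neither 0.11 ± 0.05 (adjusted p = 0.135) at 2 h nor 0.11 ± 0.06 (adjusted p = 0.111) at 6 h passed the test, and without 6 h replicate 1 the 6 h change did (0.16). Dhcr7, the final reductase of one branch, had 87.6, 87.8 and 86.5 CPM in untreated cells, 71.9, 73.8 and 73.3 at 2 h and 79.6, 79 and 80.5 at 6 h. It was the 1 gene of the 27 called lower at 2 h and then called higher at 6 h than at 2 h. Its change was -0.26 ± 0.04 (adjusted p = 0.000187) at 2 h and -0.13 ± 0.04 (adjusted p = 0.0115) at 6 h, and 0.13 ± 0.04 (adjusted p = 0.0147) between 6 h and 2 h. The 6 h call of Dhcr7 did not hold when libraries were scaled by total counts alone (-0.09, adjusted p = 0.0673) and without the filter on low counts (-0.12, adjusted p = 0.0645), with the same sign in both.

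**Figure D4:**
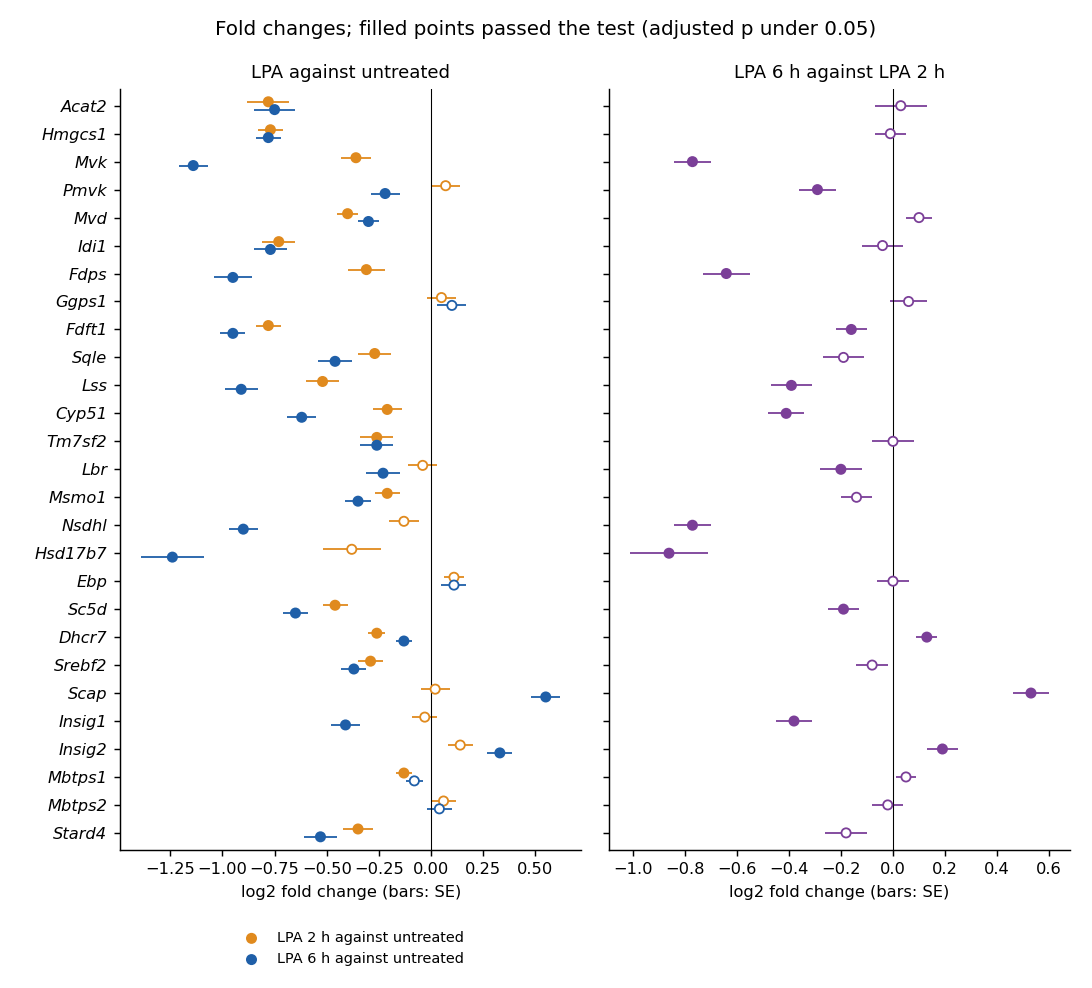
Log2 fold change with its standard error for each of the 27 genes, LPA 2 h and 6 h against untreated on the left and 6 h against 2 h on the right. Filled points passed the test at an adjusted p under 0.05, and Mvk, Nsdhl, Hsd17b7 and Fdps lie farthest left in the right panel.

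Of the 6 genes of SREBP2 and its processing, 2 fell and 0 rose at 2 h, and 2 fell and 2 rose at 6 h. These shares are near those of all tested genes (19.2% lower and 19.3% higher at 2 h, 25.7% lower and 26.4% higher at 6 h), so the counts say nothing particular about the 6. Srebf2, which encodes SREBP2 itself, had 202, 233 and 226 CPM in untreated cells, 175, 177 and 189.7 at 2 h and 159, 177 and 175 at 6 h. All LPA libraries were below all untreated ones (-0.29 ± 0.06, adjusted p = 0.00296 at 2 h and -0.37 ± 0.06, adjusted p = 0.000326 at 6 h). Scap (chromosome 9, 110333288 to 110384950, plus strand), the escort that carries SREBP2 out of the endoplasmic reticulum, had 40.4, 42.4 and 40.3 CPM in untreated cells, 40.5, 47.3 and 36.7 at 2 h and 59.2, 59.7 and 60.7 at 6 h. It was not called at 2 h (0.02 ± 0.07, adjusted p = 0.864) and rose at 6 h by 0.55 ± 0.07 (adjusted p = 7.62e-05), with all 3 of its 6 h libraries above all others, and this was the largest increase of the 27. Scap shares 985 exonic bases (13.2%) with 5830462I19Rik on the opposite strand, which had 326 counts over all 9 libraries.

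The transcripts of Insig1 and Insig2, whose proteins hold Scap back, went opposite ways at 6 h. Insig1, whose own gene is a known SREBP target, had 122, 127 and 132 CPM in untreated cells, 119, 117 and 137 at 2 h and 93.2, 91.5 and 102 at 6 h. Its libraries overlapped the untreated ones at 2 h (-0.03 ± 0.06, adjusted p = 0.77) and at 6 h it fell (-0.41 ± 0.07, adjusted p = 0.00022). Insig2 had 32.2, 29.9 and 28.7 CPM in untreated cells, 32.4, 34.7 and 32.6 at 2 h and 39.4, 36.4 and 38.1 at 6 h. It had a change of 0.14 ± 0.06 (adjusted p = 0.0767) at 2 h and a rise of 0.33 ± 0.06 (adjusted p = 0.000435) at 6 h, where every library was above every untreated one. Without untreated replicate 1 the 2 h change of Insig2 was called too (0.18). Per kilobase of annotated transcript, Insig1 averaged 47 CPM in untreated cells, 46.2 at 2 h and 35.4 at 6 h. Insig2 averaged 38.3 CPM per kilobase in untreated cells, 42 at 2 h and 48 at 6 h. On this scale Insig1 was the higher of the pair in untreated cells and Insig2 at 6 h, a difference between genes that was not tested. This order rests on the lengths used, a mean of 791 bases over 13 annotated transcripts for Insig2 and 2697 bases of 1 for Insig1. In CPM without length Insig1 was the higher at each time, with means of 126.9 against 30.3 in untreated cells and 95.5 against 38 at 6 h. Of the proteases, Mbtps1 had 75.4, 74.1 and 76.5 CPM in untreated cells, 68, 70.5 and 67.6 at 2 h and 70.1, 72.5 and 71.4 at 6 h. Its small change of -0.13 ± 0.04 (adjusted p = 0.0207) at 2 h was called, but not without untreated replicates 1 (-0.13) or 3 (-0.12) or 2 h replicate 1 (-0.13), and at 6 h it was -0.08 ± 0.04 (adjusted p = 0.12). Mbtps2 had 38.3, 33.6 and 36.7 CPM in untreated cells, 37.2, 37 and 39.1 at 2 h and 39.98, 35.7 and 36 at 6 h. Its changes of 0.06 ± 0.06 (adjusted p = 0.458) at 2 h and 0.04 ± 0.06 (adjusted p = 0.62) at 6 h did not pass. A second Mbtps2 row of 2355 counts, which it shares with Yy2, was left out.

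Stard4, a cytosolic protein that shuttles cholesterol between membranes, had 82.4, 81.1 and 91.9 CPM in untreated cells, 64.2, 61 and 75.1 at 2 h and 57, 58.5 and 61.3 at 6 h. No LPA library overlapped the untreated ones, and it fell, with log2 fold changes of -0.35 ± 0.07 (adjusted p = 0.00286) at 2 h and -0.53 ± 0.08 (adjusted p = 0.000112) at 6 h.

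**Figure D5:**
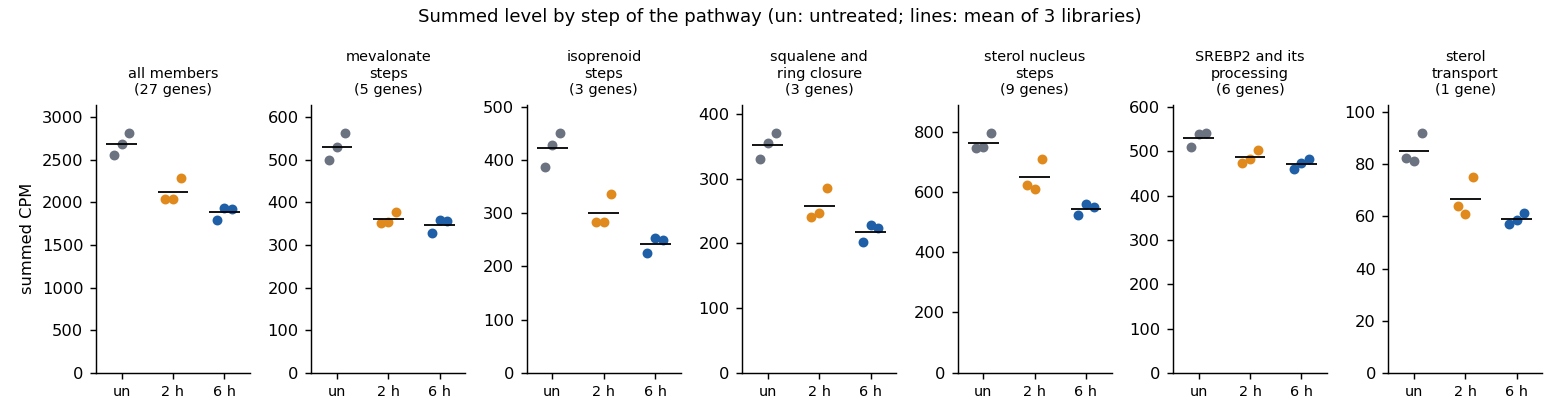
Summed CPM of all 27 genes and of each step's genes in every library, untreated (un), 2 h and 6 h from left to right, each panel with its own axis from 0, with lines at the mean of 3 libraries. The mevalonate genes sum to 350.2 to 377 CPM at 2 h and 328 to 359 CPM at 6 h, and the sterol nucleus genes to 610.4 to 709 CPM at 2 h and 523 to 559 CPM at 6 h.

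Set directly against 2 h, the 6 h libraries had lower levels of 11 of the 27 genes and higher levels of 3, Scap, Insig2 and Dhcr7, where 24.4% of all tested genes were lower and 24.3% higher. The members' median log2 fold change in this comparison was -0.14 (all genes -0.006). Scaled by total counts alone, 2912 of all tested genes were lower and 4210 higher, where the trimmed mean gave 3498 lower and 3493 higher, and the all-gene median moved to 0.046. Under that scaling 8 of the 27 were lower and 4 higher, with a median of -0.09. Fdft1 (-0.11), Lbr (-0.14) and Sc5d (-0.14) were then no longer called, and Mvd was called higher (0.16). The largest decreases among the 27 were those of Hsd17b7 (-0.86 ± 0.15, adjusted p = 0.00139), Mvk, Nsdhl and Fdps (-0.64 ± 0.09, adjusted p = 0.000226). Cyp51 (-0.41 ± 0.07, adjusted p = 0.000825) and Insig1 (-0.38 ± 0.07, adjusted p = 0.000535) were next to Lss in size. Smaller decreases were those of Pmvk (-0.29 ± 0.07, adjusted p = 0.00422), Sc5d (-0.19 ± 0.06, adjusted p = 0.0173), Lbr (-0.20 ± 0.08, adjusted p = 0.0464) and Fdft1 (-0.16 ± 0.06, adjusted p = 0.038). On the higher side, Scap differed by 0.53 ± 0.07 (adjusted p = 0.000181) and Insig2 by 0.19 ± 0.06 (adjusted p = 0.0147).

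For Acat2 (0.03 ± 0.10), Hmgcs1 and Idi1 (-0.04 ± 0.08) no difference between 6 h and 2 h was called, and the groups overlapped. Of the 11 lower calls 8 held in every fit with a library left out, and of the 3 higher calls only that of Scap did. Without 2 h replicate 1 the count of higher calls was 1. The fragile ones all failed without a 2 h library: Lbr without 2 h replicates 1 (-0.22) or 3 (-0.14), Fdft1 (-0.12) and Sc5d (-0.12) without replicate 3, and Dhcr7 (0.11) and Insig2 (0.17) without replicate 1. They also failed without some 6 h libraries. Without 6 h replicate 1 these were Fdft1 (-0.14), Sc5d (-0.17) and Insig2 (0.16), and without 6 h replicate 3 Fdft1 (-0.15) and Dhcr7 (0.12). Lbr failed without replicates 1 (-0.15), 2 (-0.22) and 3 (-0.23). Fdft1 (-0.16) and Lbr (-0.20) also failed without untreated replicate 3. Without 2 h replicate 3 the members' median was -0.08.

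Levels can be compared between genes only per length, and per kilobase of mean annotated transcript the pathway spanned a wide range in untreated cells. Idi1 (181 CPM per kilobase), Fdps (154) and Cyp51 (132) were highest there, followed by Msmo1 (92.9) and Hmgcs1 (83.1). Ggps1 (4.24) and Lbr (4.31) were lowest, with Scap at 9.71. At 6 h Idi1 (106 CPM per kilobase) and Cyp51 (86.1) were the highest, Fdps stood at 79.8, and Scap had 14.2. Annotated lengths are an average over isoforms, so this order is approximate.

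The counts of genes called on 3 lists of genes near the pathway are to be read against the same shares of all tested genes, 19.2% lower and 19.3% higher at 2 h and 25.7% lower and 26.4% higher at 6 h. Of 16 genes of the isoprenoid branch and protein prenylation, 2 fell and 2 rose at 2 h, and 3 fell and 5 rose at 6 h, with median log2 fold changes of 0.03 and -0.01, counts near those shares. Pdss1, which makes the side chain of coenzyme Q, averaged 1.55 ± 0.239 CPM at 6 h and 3.96 ± 0.431 CPM in untreated cells and fell, with a log2 fold change of -1.33 ± 0.16 (adjusted p = 2.16e-05). Icmt, the methyltransferase that finishes prenylated proteins, averaged 71 ± 1.31 CPM at 6 h and 54.2 ± 0.557 CPM in untreated cells and rose by 0.39 ± 0.04 (adjusted p = 1.11e-05). At 2 h its call (0.12 ± 0.04, adjusted p = 0.0469) was lost with DESeq2 size factors (0.11, adjusted p = 0.053), by total counts (0.10, adjusted p = 0.0977) and without any library other than 2 h replicate 3. Of 15 genes of sterol-regulated protein degradation and SREBP co-regulation, 2 fell and 6 rose at 2 h, and 6 fell and 6 rose at 6 h, with medians of 0.11 and 0.04. Among them Ube2g2, a ubiquitin-conjugating enzyme of the endoplasmic reticulum, rose at 6 h by 0.46 ± 0.07 (adjusted p = 0.000131), and Aup1, which recruits it to lipid droplets, fell, with a log2 fold change of -0.31 ± 0.04 (adjusted p = 8.52e-05).

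Of 16 genes of oxysterol, sterol ester and transport metabolism, 14 passed the filter. Of these 6 fell and 0 rose at 2 h, and 7 fell and 3 rose at 6 h, with medians of -0.13 and -0.18. Aacs, which activates acetoacetate for the synthesis of sterols and fatty acids, fell, with log2 fold changes of -0.69 ± 0.05 (adjusted p = 5.89e-07) at 2 h and -0.57 ± 0.05 (adjusted p = 1.85e-06) at 6 h. Nceh1, a cholesteryl ester hydrolase, averaged 369 ± 7.43 CPM at 6 h and 234 ± 9.30 CPM in untreated cells and rose by 0.65 ± 0.06 (adjusted p = 2.01e-06), with no call at 2 h (0.10 ± 0.06, adjusted p = 0.174). Npc1, which exports cholesterol from late endosomes, had 282, 278 and 282 CPM in untreated cells, 233, 263 and 237 at 2 h and 315, 330.3 and 334 at 6 h. It was the 1 gene of these 3 lists called in opposite directions, -0.20 ± 0.05 (adjusted p = 0.0083) at 2 h and 0.22 ± 0.05 (adjusted p = 0.00303) at 6 h.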

How the data were processed

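RNA was sequenced from 9 BMDC libraries made with a kit that does not keep strand, per the labels' protocols. The values deposited by the authors are RSEM 1.2.3 estimated counts on mm10, per the submitters' processing notes, with 1 row per set of transcript identifiers. RSEM divides reads shared by similar genes by estimate. Rows were mapped to genes through GENCODE M21 transcripts: 37776 of 38887 rows matched 1 gene, 176 several and 935 none. Estimated counts were rounded, filtered (filterByExpr, minimum count 10) and tested in 1 fit over the 3 groups with edgeR 4.0.16 (trimmed mean scaling, robust quasi-likelihood, Benjamini-Hochberg over 14363 genes) in R 4.3.3. The fit was also run on simulated counts with independent libraries and far fewer changed genes than were called here. That run is not used as support for the results. Replicates of no group agreed within counting noise. Deviations of same-numbered libraries from their groups correlated weakly, at 0.178, 0.144 and 0.151 between 6 h and untreated. Those of different numbers lay between -0.132 and -0.006. The labels state no pairing, and whether same-numbered libraries belong together was not tested. A replicate block changed 0 member calls at 6 h against untreated. Alternatives were DESeq2 1.42.0 (size factors and Wald test), limma 3.58.1 (voom), total-count and upper-quartile scaling, other filters, summed rows, only the samples compared, a replicate block, a fold threshold and each library left out. The members and lists were chosen with earlier results of these data known. The text names all 27 members, and of each other list the called genes with the 2 smallest p at 6 h and any called in opposite directions at both times.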

Additional observations from a re-analysis of the deposited data

Results flagged for a closer look

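For 14 of the 27 pathway genes the level under LPA differed in the direct test of 6 h against 2 h. The test was edgeR's quasi-likelihood test, Benjamini-Hochberg adjusted over all genes. It equals the difference between both contrasts with untreated, because they share the untreated libraries. No untreated group was matched to either time, so time under LPA and time in culture cannot be told apart. Those with the lower level at 6 h were Hsd17b7 (log2 difference -0.86), Mvk (-0.77), Nsdhl (-0.77), Fdps (-0.64), Cyp51 (-0.41), Lss (-0.39), Insig1 (-0.38), Pmvk (-0.29), Lbr (-0.20), Sc5d (-0.19) and Fdft1 (-0.16). Those with the higher level at 6 h were Scap (0.53), Insig2 (0.19) and Dhcr7 (0.13). By the same test 24.4% of all tested genes were lower at 6 h than at 2 h and 24.3% higher. The total of 14 is near the share of all genes, so the total alone says nothing particular about the pathway. By direction 11 were lower and 3 higher. The median log2 fold change of the 27 was -0.14, against -0.006 for all genes, and this lean to lower levels was not tested. Groups of 3 libraries are too small for a check for single outlying samples, and no explanation was weighed.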

How the results depend on the processing

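Among 540 gene and setting combinations per comparison, direction and side of the threshold held in 497 at 2 h against untreated, 517 at 6 h against untreated and 486 at 6 h against 2 h. Asking for more than a fold change of 1.2 (glmTreat) left 7 lower and 0 higher calls at 2 h, 14 lower and 1 higher at 6 h, and 4 lower and 1 higher at 6 h against 2 h. Of all genes, 6.15% were then lower and 7.51% higher at 2 h, 12.4% and 12.1% at 6 h, and 9.66% and 8.01% at 6 h against 2 h. With libraries left out, the lower and higher counts ranged from 11 to 19 and 0 to 1 at 2 h, 19 to 21 and 2 to 3 at 6 h, and 8 to 12 and 1 to 3 at 6 h against 2 h. The members' medians ranged from -0.31 to -0.24, -0.46 to -0.38 and -0.19 to -0.08 in that order of comparisons. Signs turned only for changes that were not called. With libraries left out, these were at 2 h Ggps1 (-0.03 to 0.09), Scap (-0.09 to 0.10) and Insig1 (-0.10 to 0.01), and at 6 h Mbtps2 (-0.02 to 0.08). At 6 h against 2 h they were Hmgcs1 (-0.04 to 0.02), Idi1 (-0.09 to 0.04), Mbtps2 (-0.08 to 0.01) and Acat2 (-0.06 to 0.14), and Tm7sf2 (-0.07 to 0.07) and Ebp (-0.05 to 0.05), both at 0.00 with all libraries, took either sign. Summing its rows also turned Mbtps2 at 6 h (-0.01), and scaling by total counts turned Rnf145 at 6 h (0.03) and Hmgcs1 (0.05), Idi1 (0.02) and Mbtps2 (0.03) at 6 h against 2 h. The replicate block gave 18 lower and 0 higher at 2 h, 21 and 2 at 6 h, and 14 and 4 at 6 h against 2 h. With the block, Hsd17b7 was called at 2 h (-0.39), and Sqle (-0.19), Msmo1 (-0.14), Stard4 (-0.17) and Mvd (0.10) were called at 6 h against 2 h. Same-numbered deviations correlated at 0.165, 0.09 and 0.184 for 2 h with untreated, where those of different numbers lay between -0.148 and -0.031. For 6 h with 2 h they correlated at 0.128, 0.035 and 0.106, and those of different numbers lay between -0.159 and 0.073. Whether same-numbered libraries belong together was not tested. Depth was not limiting for the members, none of which fell below 10 CPM in any library. The cause of the changes was not tested.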

Other observations

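In the 3 neighbouring gene lists, 4 genes chosen after their values were seen changed at 2 h. Ch25h, the enzyme that makes an oxysterol able to hold Scap with Insig, had 3.98, 4.67 and 3.13 CPM in untreated cells, 1.62, 1.57 and 0.979 at 2 h and 1.91, 1.49 and 1.54 at 6 h. Every LPA library was below every untreated one, with a log2 fold change of -1.48 ± 0.20 (adjusted p = 9.44e-05) at 2 h and -1.28 ± 0.20 (adjusted p = 0.00019) at 6 h by edgeR. Soat1, which esterifies cholesterol for storage, had 671, 648 and 680.1 CPM in untreated cells, 444, 456 and 486 at 2 h and 586, 566 and 596 at 6 h. It was lower than untreated, with log2 fold changes of -0.53 ± 0.05 (adjusted p = 3.63e-06) at 2 h and -0.19 ± 0.05 (adjusted p = 0.00398) at 6 h, and higher at 6 h than at 2 h by 0.33 ± 0.05 (adjusted p = 0.000154). Erlin1, part of the membrane complex that restrains sterol synthesis, had 43.2, 43.1 and 46.6 CPM in untreated cells, 67.8, 63.6 and 73.6 at 2 h and 50.8, 54.9 and 53.3 at 6 h. It rose by 0.62 ± 0.06 (adjusted p = 6.23e-06) at 2 h and 0.26 ± 0.06 (adjusted p = 0.00287) at 6 h. Rnf145, a ubiquitin ligase with a sterol-sensing domain, had 35.9, 35.7 and 33.8 CPM in untreated cells, 26.4, 29.3 and 24.3 at 2 h and 35.4, 34.9 and 34.2 at 6 h. It was lower, with a log2 fold change of -0.39 ± 0.06 (adjusted p = 0.000435) at 2 h with no call at 6 h (-0.01 ± 0.06, adjusted p = 0.891).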
